A study of Sus scrofa with 5 samples.

Results

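The miRNAs ssc-miR-378, ssc-miR-378b, ssc-miR-320, ssc-miR-484 and ssc-miR-423, with or without an arm ending, were followed through small RNA libraries of pig embryos and pig cells. They were picked from the read counts of these same libraries as abundant names that lay higher in blastocysts, so their height in blastocysts is given as a description, without a test. The rule matched 6 of the 411 mature names in the table: ssc-miR-378, ssc-miR-378b-3p, ssc-miR-320, ssc-miR-423-3p, ssc-miR-423-5p and ssc-miR-484. The first 5 of these had 10 or more reads in every library. ssc-miR-484 was listed at 0 reads in all 5 libraries, as were 84 of the 411 names, and the label of a blastocyst-high miRNA does not hold for it. For ssc-miR-423-3p against ES-like cells it depended on the scaling.

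Blastocysts (BLs) were day 7 embryos made by parthenogenetic activation, in which an oocyte is started into development without sperm, and each BL library, BL_1 and BL_2, was a pool of such embryos. Pig ES-like cells were embryonic stem cell-like colonies derived from blastocysts and grown with stem cell factor and basic fibroblast growth factor on mouse feeder fibroblasts. Embryoid bodies (PEBs) were hanging-drop aggregates of these ES-like cells without cytokines, and pig fetal fibroblasts (PFFs) were a culture from fetuses freed of head, limbs and internal organs. BLs had 2 libraries and each of the other types had 1, so a difference among ES-like cells, PEBs and PFFs has no replicate check, and the intervals given for it cover counting error only. PCR copies of 1 molecule can each be read, so the intervals are too narrow for molecules. Values are reads per 1000000 mature miRNA reads (RPM), a share of the miRNA reads of a library, so fewer cells with a miRNA and less of it per cell cannot be told apart. The paper reports that miRNAs made up a much smaller part of the small RNAs in both BL libraries than in the cultured types. RPM and the other scalings used here rest on mature miRNA reads alone. An excess in BLs could therefore be smaller per small RNA read, which was not tested.

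A primary miRNA transcript is usually cut by the nuclease Drosha in the nucleus to a hairpin, which Dicer then cuts to a duplex whose 5p or 3p arm is loaded into an Argonaute protein. miR-320 and miR-484 are known exceptions, since their hairpins arise as short capped transcripts and need no Drosha. miR-378 lies in an intron of PPARGC1B, which encodes a coactivator of mitochondrial genes, and is known from muscle and fat metabolism. miR-378b is a related copy. miR-423 is a Drosha-dependent hairpin of which both arms are found in most tissues, and it is often used as a reference in qPCR. In the RefSeq gene table, 5 of the 6 precursors of these miRNAs were found by name. ssc-mir-378-1 lay within PPARGC1B, ssc-mir-378-2 within BCAS3, ssc-mir-378b within RGS3 and ssc-mir-423 within NSRP1, while ssc-mir-320 overlapped POLR3D, which encodes a subunit of RNA polymerase III. That table is on Sscrofa11.1 and the reads were aligned to an earlier assembly, so no coordinates are given.

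Mature miRNA reads ranged from 113743 in BL_1 and 2782150 in BL_2 to 27071931 in PFFs, with 6372500 in ES-like cells and 15849954 in PEBs. 1 read was therefore worth 8.79 RPM in BL_1 and 0.0369 RPM in PFFs. Markers of BLs, ES-like cells and fibroblasts were read off, and no list was set for PEBs. ssc-miR-371-5p, an embryo miRNA, had 324635 RPM in BL_1 and 296148 RPM in BL_2 against at most 30.91 RPM elsewhere. All 4 miRNAs listed for ES-like cells (ssc-miR-106a, ssc-miR-363, ssc-miR-20b and ssc-miR-18b) were highest there, with 51890 RPM in sum, and ssc-miR-18b was at 0 reads in both BL libraries. All 6 fibroblast-associated names together had from 332.5 to 457.2 RPM in BLs, 84293 RPM in ES-like cells, 211679 RPM in PEBs and 233384 RPM in PFFs, and ssc-miR-145-5p and ssc-miR-214 were at 0 reads in BL_1. Of the 6, ssc-miR-143-3p and ssc-miR-145-5p were highest in PFFs, while ssc-miR-199a-3p, ssc-miR-199a-5p, ssc-miR-199b-3p and ssc-miR-214 were highest in PEBs. ssc-miR-199a-3p and ssc-miR-199b-3p had nearly equal counts and may hold the same reads. Between BLs and the cultured libraries, the fibroblast-associated names thus moved opposite to the blastocyst-high miRNAs described here. The part of feeder or other fibroblasts in the values of the cultured libraries was not tested.

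ssc-miR-378 was the most abundant of the set in BLs and the second most abundant name of both BL libraries. It had 16260 reads or 142954 RPM in BL_1 and 357514 reads or 128503 RPM in BL_2. In ES-like cells it had 44693 reads or 7013 RPM, in PEBs 73791 reads or 4656 RPM and in PFFs 17995 reads or 664.7 RPM. Both BL libraries lay far above the 3 cultured libraries, which fell in the order ES-like cells, PEBs and PFFs with counting intervals that did not overlap. The mean of the BLs was 135728 RPM ± 10218 (SD, n = 2). This mean was 19.4 times the level in ES-like cells, 29.2 times that in PEBs and 204 times that in PFFs. ssc-miR-378 took 14.3% of all mature reads in BL_1 (14.1 to 14.5%, 95% Wilson interval) and 12.9% in BL_2 (12.8 to 12.9%), against 0.0665% in PFFs (0.0655 to 0.0674%). Taken alone, BL_2 was 18.3 times ES-like cells (18.1 to 18.5).

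The level of ssc-miR-378 rests on a pair of precursor rows with nearly the same counts. ssc-mir-378-1 and ssc-mir-378-2 held 8134 and 8126 reads in BL_1, 178842 and 178672 in BL_2, and 22347 and 22346 in ES-like cells. PEBs had 36899 and 36892, and PFFs 8997 and 8998. Of the 57 names with several rows and a read, 37 had rows within 1% of each other in every library. The files do not show whether the same reads were counted at both precursors. When only the largest row of each name was kept, ssc-miR-378 stood at 86176 RPM in BL_1 and 77272 RPM in BL_2, against 4254 RPM in ES-like cells, 3078 RPM in PEBs and 380.1 RPM in PFFs. Its rank was then 2 in BL_1 and 3 in BL_2. The BL mean was then 19.2-fold over ES-like cells, 26.5-fold over PEBs and 215-fold over PFFs, so the ratios between libraries moved much less than the level.

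ssc-miR-378b-3p, from a single precursor, was a minor relative. It had 217 reads or 1908 RPM in BL_1, 3812 reads or 1370 RPM in BL_2, 1069 reads or 167.8 RPM in ES-like cells, 3186 reads or 201.0 RPM in PEBs and 512 reads or 18.91 RPM in PFFs. Both BL libraries were again above all cultured libraries and PFFs were lowest, but in RPM PEBs were above ES-like cells, the reverse of ssc-miR-378. With edgeR's TMM scaling both lay higher in PEBs, at log2 values for ES-like cells over PEBs of -0.13 for ssc-miR-378 and -0.98 for ssc-miR-378b-3p. With 217 reads, the level in BL_1 had a 95% exact Poisson interval from 1662 to 2179 RPM. The BL mean of 1639 RPM ± 380.2 (SD, n = 2) was 8.15 times the level in PEBs, 9.77 times that in ES-like cells and 86.7 times that in PFFs.

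Within a library, the reads of ssc-miR-378 can be set over those of ssc-miR-378b-3p, and this ratio does not depend on scaling. It was 74.9 in BL_1 (95% Clopper-Pearson interval 65.5 to 86.1) and 93.8 in BL_2 (90.8 to 96.9). It was 41.8 in ES-like cells (39.3 to 44.5), 23.2 in PEBs (22.4 to 24) and 35.1 in PFFs (32.2 to 38.4). The excess of ssc-miR-378 over its relative was thus higher in both BL libraries than in any cultured library, by 1.37 on the log2 scale between the means. With the largest row only, the ratios ran from 11.6 in PEBs to 46.9 in BL_2 and kept their order. Reads that match both names could have been placed at either, which the files do not show.

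ssc-miR-320 was the Drosha-independent miRNA with reads. It had 4693 reads or 41260 RPM in BL_1, 64929 reads or 23338 RPM in BL_2, 7023 reads or 1102 RPM in ES-like cells, 14247 reads or 898.9 RPM in PEBs and 24366 reads or 900.0 RPM in PFFs. It ranked 6 in BL_1 and 10 in BL_2, and between 50 and 71 in the cultured libraries. The BL libraries stood far above the cultured libraries, and in RPM PEBs and PFFs had overlapping counting intervals (884.2 to 913.8 RPM and 888.8 to 911.4 RPM). With the 3 other scalings tried, PFFs stood above both ES-like cells (log2 ES-like cells over PFFs from -1.18 to -0.40) and PEBs (-1.01 to -0.76). The mean of the BLs was 32299 RPM ± 12673 (SD, n = 2), which was 29.3 times the level in ES-like cells and 35.9 times that in each of PEBs and PFFs. BL_1 was 1.77 times BL_2 (1.72 to 1.82), the widest gap between the BL libraries in the set, yet BL_2 alone was still 21.2 times ES-like cells (20.7 to 21.7).

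ssc-miR-484, the other capped hairpin, had a row in the table with 0 reads in each library. Such a count of 0 allows, at 3 counts, up to 26.4 RPM in BL_1, 1.08 RPM in BL_2, 0.471 RPM in ES-like cells, 0.189 RPM in PEBs and 0.111 RPM in PFFs. These limits are for reads placed at this entry and for counting error only. The list of miRNAs made without Drosha (capped hairpins and mirtrons, which are spliced introns) had 7 names. Of these, ssc-miR-320, ssc-miR-484 and ssc-miR-1224 had a row, ssc-miR-1224 was also at 0 reads in all 5 libraries, and the other 4 had no row under the listed names. With ssc-miR-320 as the only such miRNA with reads, these libraries do not show whether Drosha-independent miRNAs as a group were higher in BLs.

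**Figure D1:**
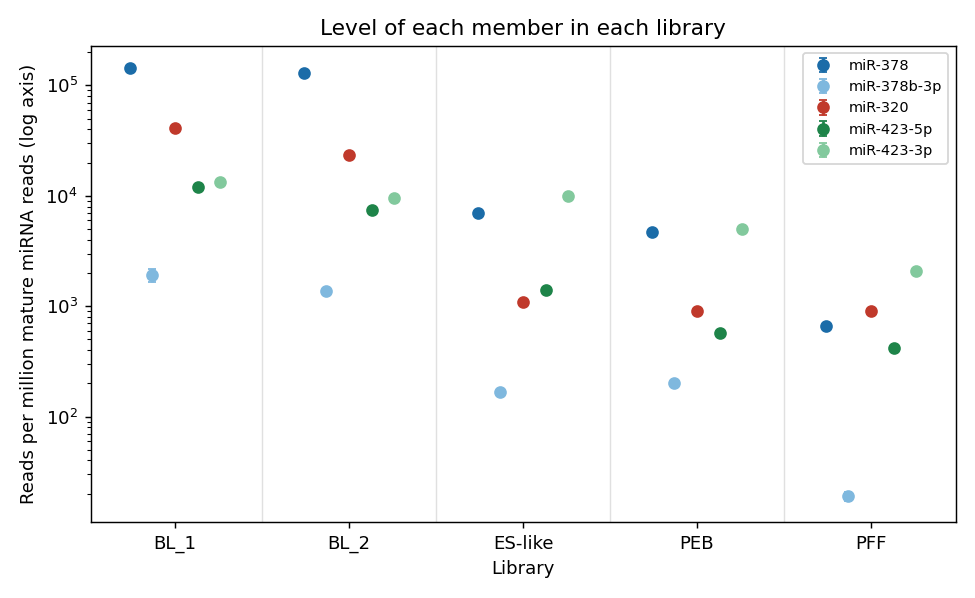
RPM of each of the 5 miRNAs with reads, on a log axis, in each of the 5 libraries. Points are libraries and bars are 95% exact Poisson intervals, mostly smaller than the point. ssc-miR-378 falls from 142954 RPM in BL_1 to 664.7 RPM in PFFs, while ssc-miR-423-3p in ES-like cells (9867 RPM) lies between BL_2 and BL_1.

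The arms of miR-423 differed in their pattern. ssc-miR-423-5p had 1367 reads or 12018 RPM in BL_1, 20484 reads or 7363 RPM in BL_2, 8976 reads or 1409 RPM in ES-like cells, 9060 reads or 571.6 RPM in PEBs and 11342 reads or 419.0 RPM in PFFs. Both BL libraries were above every cultured library, and the BL mean of 9690 RPM ± 3292 (SD, n = 2) was 6.88 times ES-like cells, 17 times PEBs and 23.1 times PFFs. BL_2, the lower of the pair, was 5.23 times ES-like cells (5.10 to 5.36).

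ssc-miR-423-3p had 1521 reads or 13372 RPM in BL_1, 26416 reads or 9495 RPM in BL_2, 62876 reads or 9867 RPM in ES-like cells, 79416 reads or 5010 RPM in PEBs and 55991 reads or 2068 RPM in PFFs. In RPM, ES-like cells lay between the BL libraries, so BLs and ES-like cells overlapped, while PEBs and PFFs lay below both. The BL mean of 11434 RPM ± 2742 (SD, n = 2) was 1.16 times the level in ES-like cells, a difference within the spread of the BL libraries in RPM. It was 2.28 times the level in PEBs and 5.53 times that in PFFs. BL_2 alone was 0.962 times ES-like cells and 1.89 times PEBs, so in RPM the 2-fold difference from PEBs depended on BL_1. With the 3 other scalings both BL libraries lay above ES-like cells, BL_1 by 1.58 to 2.20 times and BL_2 by 1.18 to 1.57 times. Over PEBs, BL_2 alone was then 1.88 times (TMM), 2.73 times (size factors) and 2.71 times (without the 5 most abundant names).

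In each library, the 3p reads of miR-423 over its 5p reads gave 1.11 in BL_1 (95% Clopper-Pearson interval 1.03 to 1.20) and 1.29 in BL_2 (1.27 to 1.31). The ratio was 7.00 in ES-like cells (6.85 to 7.16), 8.77 in PEBs (8.58 to 8.96) and 4.94 in PFFs (4.84 to 5.04). The arms were thus nearly even in BLs, and the 3p arm dominated in each cultured library. On the log2 scale the mean ratio was 0.26 in BLs and 2.75 in the cultured libraries, a difference of -2.49, against a range of 0.21 between the BL libraries.

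A shift of arms between BLs and cultured libraries was not particular to miR-423. 10 miRNAs had both arms at 10 or more reads in every library, and in 7 of them the BL ratios lay apart from all 3 cultured ratios. miR-423 was the fourth by size of the shift. ssc-miR-361 moved the other way, by 3.24 toward its 3p arm in BLs. ssc-miR-92b and ssc-miR-221 moved by -2.75 and -2.56, away from the 3p arm as miR-423 did. BL_1 had only 35 reads of ssc-miR-221-5p, 26 of ssc-miR-92b-5p and 19 of ssc-miR-361-5p, against 1367 of ssc-miR-423-5p, so the ratio of miR-423 was the best counted of these 4.

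**Figure D2:**
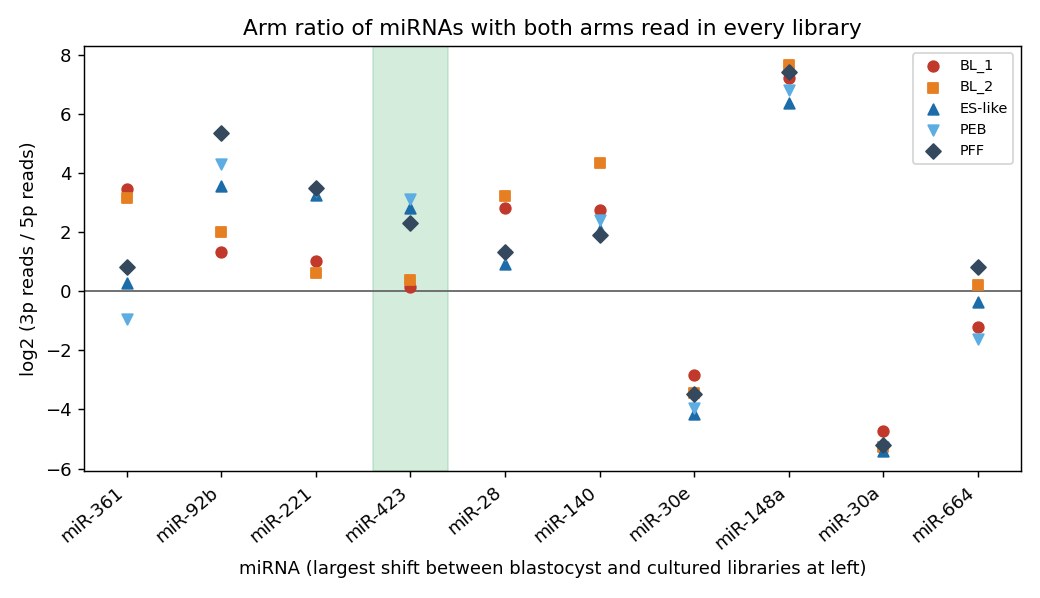
Log2 of 3p reads over 5p reads for the 10 miRNAs with both arms at 10 or more reads in every library, ordered by the size of the shift between BL and cultured libraries, with 1 marker per library. For miR-423 (shaded) the BL libraries lie at 0.15 and 0.37 and the cultured libraries from 2.30 to 3.13.

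Set against all 327 names with a read, 4 of the 5 members with a read (ssc-miR-378, ssc-miR-378b-3p, ssc-miR-320 and ssc-miR-423-5p) passed the study's rule of a more than 2-fold higher BL mean than in each other type. Over all names, 18.7% passed it. In RPM, the same 4 had both BL libraries above all 3 cultured libraries, which held for 20.5% of all names. Against ES-like cells alone, 4 passed 2-fold (24.8% of all names), against PEBs 5 (26.9%) and against PFFs 5 (36.1%). These counts follow from how the names were picked and are not read further.

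The size of the BL excess was placed among other miRNAs as a description only, since the names were picked for this excess. By the BL mean over the highest cultured library in RPM, ssc-miR-320 was number 5 and ssc-miR-378 number 6 of the 116 names with 10 or more reads in every library, at log2 values of 4.87 and 4.27. ssc-miR-378b-3p was number 12 at 3.03, ssc-miR-423-5p number 13 at 2.78 and ssc-miR-423-3p number 38 at 0.21. With TMM, ssc-miR-378 (4.81) was above ssc-miR-320 (4.34) and ssc-miR-423-5p (3.44) above ssc-miR-378b-3p (2.97). The 4 names above them, ssc-miR-664-5p, ssc-miR-184, ssc-miR-664-3p and ssc-miR-205, had values from 6.19 to 6.92. ssc-miR-371-5p, with 8 reads in PEBs and 5 in PFFs, is not among the 116. The limit of 10 reads also left out other names high in BLs. Of all 327 names 61 passed the 2-fold rule for BLs, and of the 116 only 25, so the ranks hold among the 116 alone. Among the 20 most abundant names of BLs, 11 had both BL libraries above all cultured libraries. These were ssc-miR-378, ssc-miR-320 and ssc-miR-423-5p, and also ssc-miR-371-5p, ssc-miR-7, ssc-miR-30d, ssc-miR-10b, ssc-miR-182, ssc-miR-128, ssc-miR-183 and ssc-miR-191.

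**Figure D3:**
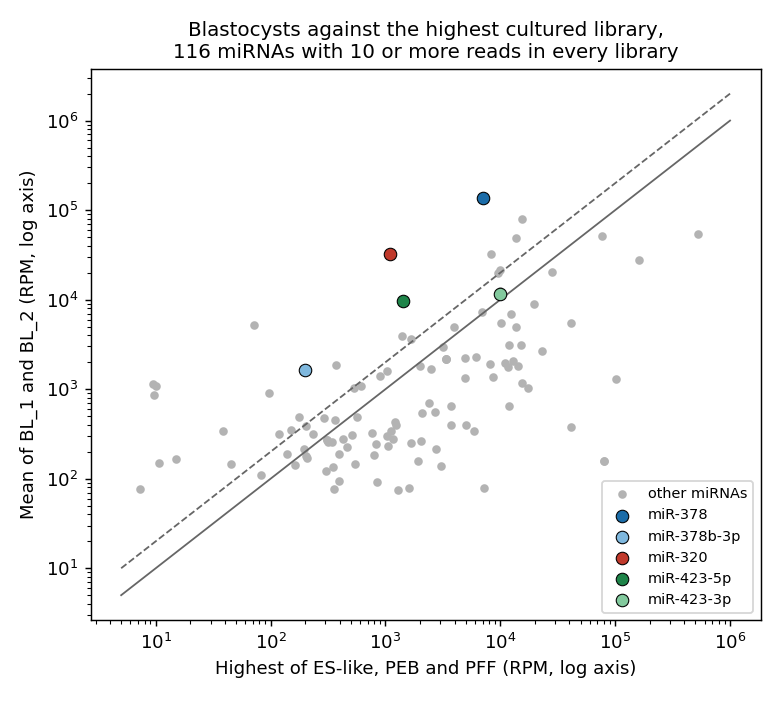
Mean RPM of BL_1 and BL_2 against the highest RPM of ES-like cells, PEBs and PFFs for 116 miRNAs, both on log axes, with lines of equality (solid) and of a 2-fold higher BL mean (dashed). 4 of the coloured miRNAs lie above the dashed line, while ssc-miR-423-3p lies near equality at 1.16-fold.

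In the order of BL means, ssc-miR-378 (second) was separated from its neighbours, with both of its BL values below those of ssc-miR-371-5p and above those of ssc-miR-7 (67591 and 92756 RPM). This separation rests on the sum of its precursor rows. With the largest row of each name, ssc-miR-378 stayed above the next name in BL_1 (ssc-miR-30d, 59965 RPM) but lay below ssc-miR-21 in BL_2 (77272 against 84123 RPM). ssc-miR-320 (number 7) had a mean within the range of ssc-miR-10b (28485 and 36027 RPM), the next name, from which it did not differ beyond the spread of the BL libraries. The arms of miR-423 stood next to each other as numbers 14 and 15, with ranges that overlapped each other and those of their outer neighbours, ssc-miR-183 and ssc-miR-26a. ssc-miR-378b-3p (number 43) overlapped with both neighbours, ssc-miR-140-3p and ssc-miR-222.

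Together the 5 miRNAs with reads took 21.2% of all mature reads in BL_1 (20.9 to 21.4%) and 17% in BL_2 (17 to 17.1%). They took 1.96% in ES-like cells (1.95 to 1.97%), 1.13% in PEBs (1.13 to 1.14%) and 0.407% in PFFs (0.405 to 0.409%). The makeup of this share also differed. ssc-miR-378 reads were 3.46 and 5.51 times those of ssc-miR-320 in the BL libraries, and the same ratio stood at 6.36 (ES-like cells), 5.18 (PEBs) and 0.739 (PFFs). With the largest precursor row these ratios were 1.73 and 2.75 in the BL libraries, 3.18 (ES-like cells), 2.59 (PEBs) and 0.369 (PFFs). In all 3 cultured libraries, ssc-miR-423-3p had the highest level of the set. With the largest row of each name only, the share was 16.9% in BL_1, 12.7% in BL_2 and from 0.428 to 1.95% in the cultured libraries.

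The BL libraries were compared with each other as a measure of the spread. All 5 miRNAs with reads had a higher RPM in BL_1 than in BL_2, which held for 34.3% of the 327 names and for 45.7% of the 116 with 10 or more reads everywhere. BL_1 over BL_2 was 1.11 for ssc-miR-378 (counting interval 1.1 to 1.13), 1.39 for ssc-miR-378b-3p (1.21 to 1.60), 1.41 for ssc-miR-423-3p (1.34 to 1.48), 1.63 for ssc-miR-423-5p (1.54 to 1.72) and 1.77 for ssc-miR-320. None of the 5 differed by more than 2-fold, as did 11.9% of all names toward BL_1 and 29.4% toward BL_2, or 9.48% and 8.62% of the 116. The gap between BL libraries was beyond counting error by these intervals, which all lay above equality but are too narrow for molecules. The names were picked for their BL excess over cultured cells, so its size beside this gap is not read further. For ssc-miR-423-3p in RPM, the gap of 1.41 was above the BL mean over ES-like cells (1.16). It was below the BL mean over PEBs (2.28) and PFFs (5.53).

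The comparison of ES-like cells, PEBs and PFFs with each other did not enter the rule as such, although it has 1 library for each type. Over PFFs, ssc-miR-378 was 10.6-fold higher in ES-like cells (counting interval 10.4 to 10.7) and 7.00-fold higher in PEBs (6.89 to 7.12). ssc-miR-378b-3p was 8.87-fold higher in ES-like cells (7.98 to 9.87) and 10.6-fold higher in PEBs (9.68 to 11.7). With the 3 other scalings the log2 ratio of PEBs over PFFs went from 2.81 to between 1.80 and 2.05 for ssc-miR-378 and from 3.41 to between 2.41 and 2.65 for ssc-miR-378b-3p. The miR-378 pair was thus the part of the set that most separated the ES-like culture and its aggregates from fibroblasts.

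Over PFFs, the 3p arm of miR-423 was 4.77-fold higher in ES-like cells and 2.42-fold higher in PEBs, and the 5p arm 3.36-fold and 1.36-fold. These values depended on the scaling. In log2, ES-like cells over PFFs was 2.25 in RPM for the 3p arm, 1.22 with size factors and 0.78, below 2-fold, with TMM. In log2, PEBs over PFFs was 1.28 in RPM for the 3p arm and from 0.27 to 0.52, below 2-fold, with the 3 other scalings tried, and for the 5p arm it turned from 0.45 to between -0.56 and -0.31. ssc-miR-320 was 1.22-fold higher in ES-like cells (1.19 to 1.26), and the RPM of PEBs was 0.999 times that of PFFs (0.978 to 1.02). With the 3 other scalings ssc-miR-320 was lower in PEBs than in PFFs, by log2 values from -1.01 to -0.76. With PEBs as the base, ES-like cells had 2.46 times the level of ssc-miR-423-5p (2.39 to 2.54), 1.97 times that of ssc-miR-423-3p (1.95 to 1.99), 1.51 times that of ssc-miR-378 (1.49 to 1.52), 1.23 times that of ssc-miR-320 (1.19 to 1.26) and 0.835 times that of ssc-miR-378b-3p (0.778 to 0.895). With TMM the log2 ratio of ssc-miR-423-5p went from 1.30 to 0.58, below 2-fold, and that of ssc-miR-423-3p from 0.98 to 0.26.

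In counts, 4 names in RPM were more than 2-fold higher in ES-like cells than in PFFs (50.8% of all 327 names), with TMM 2 and with size factors 3. PEBs over PFFs had 3 names (42.8%), and 2 with each of the 3 other scalings. ES-like cells over PEBs had 1 name (25.7%), 0 with TMM and 2 without the 5 most abundant names. No name passed in the opposite directions in RPM, while 19% (PFFs over ES-like cells), 19% (PFFs over PEBs) and 20.2% (PEBs over ES-like cells) of all names did. ssc-miR-320 passed for PFFs over ES-like cells with TMM (log2 ES-like cells over PFFs -1.18). It also passed for PFFs over PEBs with size factors (log2 PEBs over PFFs -1.01). The median of the 116 names in RPM was 1.20 in log2 for ES-like cells over PFFs and 0.78 for PEBs over PFFs. ssc-miR-378 (3.40 and 2.81), ssc-miR-378b-3p (3.15 and 3.41) and ssc-miR-423-3p (2.25 and 1.28) lay above both medians. ssc-miR-423-5p lay above the first (1.75) and below the second (0.45), and ssc-miR-320 lay below both. A single miRNA, ssc-miR-21, had 52.3% of the reads of PFFs, and its part in these values was not tested.

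Other scalings changed the call or direction of several of these comparisons. With edgeR's TMM factors, the median of the 116 names for ES-like cells over PFFs was -0.27, and with DESeq2's size factors 0.17. The log2 ratio of ES-like cells over PFFs for ssc-miR-378 was 3.40 in RPM, 1.92 with TMM and 2.36 with size factors, and for ssc-miR-378b-3p it was 3.15, 1.67 and 2.11. That of ssc-miR-423-5p fell from 1.75 to 0.27 and 0.71, below 2-fold, and that of ssc-miR-320 turned from 0.29 to -1.18 and -0.74. The log2 of the BL mean over the highest cultured library was from 4.27 to 4.91 for ssc-miR-378 and from 4.34 to 4.87 for ssc-miR-320 over the 4 scalings tried. It was from 2.97 to 3.64 for ssc-miR-378b-3p, from 2.78 to 3.44 for ssc-miR-423-5p and from 0.21 to 0.87 for ssc-miR-423-3p.

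**Figure D4:**
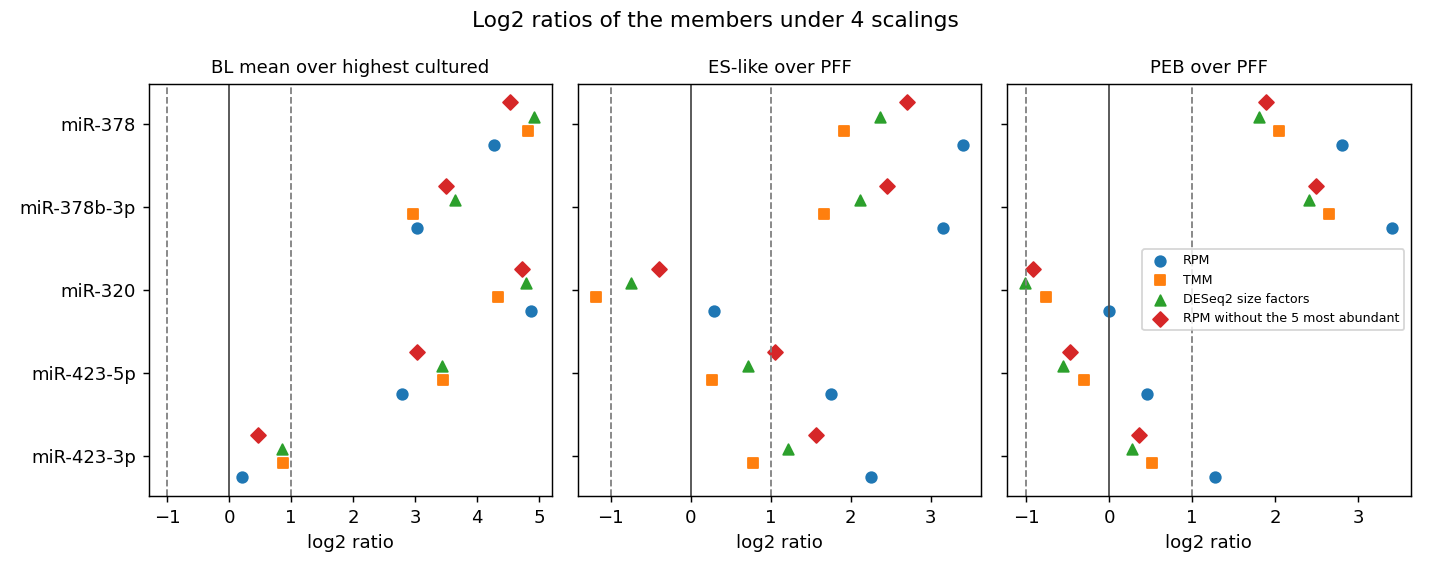
Log2 ratios of the 5 miRNAs with reads under 4 scalings (RPM, TMM, DESeq2 size factors, and RPM with the 5 most abundant miRNAs of each library left out of the total), for the BL mean over the highest cultured library and for ES-like cells and PEBs over PFFs. The solid line is at equality and the dashed lines at 2-fold. The BL ratios keep their side of 2-fold under each scaling, while ssc-miR-320 lies on both sides of equality for ES-like cells over PFFs.

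The study's grouping of pluripotent libraries (BLs and ES-like cells) against differentiated ones (PEBs and PFFs) was also read off for these miRNAs. In RPM, 4 of the 5 members with a read, ssc-miR-320, ssc-miR-378 and the arms of miR-423, had all 3 pluripotent libraries above both differentiated libraries, against 15.6% of all names. The BL values, which chose the names, fix most of this. The part left to ES-like cells was small for ssc-miR-320, at 1102 against 900.0 RPM. By the 2-fold rule for both the BL mean and ES-like cells, 1 name passed, ssc-miR-423-5p, against 6.73% of all names. With TMM, ES-like cells were below PEBs for ssc-miR-378 (-0.13) and ssc-miR-320 (-0.42), so neither had all pluripotent libraries above the others. ES-like cells were then also below PFFs for ssc-miR-320, and 0.27 above them in log2 for ssc-miR-423-5p.

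miR-423, miR-320 and miR-484 are used as endogenous controls in qPCR, so they were set beside a list of 10 other miRNAs used in that way, of which 8 had a row: ssc-miR-16, ssc-miR-103, ssc-miR-191, ssc-miR-24-3p, ssc-miR-26a, ssc-miR-186, ssc-miR-361-5p and ssc-miR-425-5p. None of the 8 passed the 2-fold rule for BLs in RPM, and the median of their log2 BL mean over the highest cultured library was -1.09, beside -0.79 over the 116 names. With TMM or size factors 1 of them, ssc-miR-425-5p, passed. From the highest to the lowest library, the 8 spanned from 3.40-fold (ssc-miR-26a) to 7.43-fold (ssc-miR-425-5p), and the median of the 116 names spanned 8.20-fold. ssc-miR-423-3p spanned 6.47-fold, inside the range of the 8. ssc-miR-423-5p spanned 28.7-fold, ssc-miR-320 45.9-fold, ssc-miR-378b-3p 101-fold and ssc-miR-378 215-fold, all outside it. These wide spans run from BL_1 down to the lowest cultured library. The names were picked for their height in BLs and the 8 controls were not, so the spans are a description and no conclusion is drawn from them.

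The 3 miRNAs most like each of the 5 were found by Pearson's r of log2(RPM + 1) over the 5 libraries, of which a pair are BLs, so such an r mostly ranks likeness of the step from BLs to the cultured libraries. ssc-miR-320 was most like ssc-miR-664-5p (r = 0.995), ssc-miR-139-5p (0.987) and ssc-miR-664-3p (0.970). ssc-miR-664-5p had 1257 and 1015 RPM in BLs and from 5.43 to 9.40 RPM in cultured libraries, a larger step than that of ssc-miR-320 (log2 6.92 against 4.87) with a wider relative range among the cultured libraries. ssc-miR-378 was most like the arms of miR-92b (0.988 for 3p, 0.987 for 5p) and ssc-miR-378b-3p (0.986).

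ssc-miR-378b-3p was most like ssc-miR-30d (0.998), then ssc-miR-378 (0.986) and ssc-miR-92b-3p (0.985). ssc-miR-30d had 49761 and 46754 RPM in BLs, 11498 RPM in ES-like cells, 13744 RPM in PEBs and 2780 RPM in PFFs, with PEBs above ES-like cells as for ssc-miR-378b-3p. ssc-miR-423-5p was most like ssc-miR-1285 (0.992), ssc-miR-361-3p (0.991) and ssc-miR-92b-5p (0.986).

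ssc-miR-423-3p had other neighbours than the 5p arm, namely ssc-miR-128 (0.985), ssc-miR-532-5p (0.981) and ssc-miR-1343 (0.976). Among the 5 miRNAs themselves, r was highest for ssc-miR-378 with ssc-miR-378b-3p (0.986) and lowest for ssc-miR-320 with ssc-miR-423-3p (0.687), and it was 0.840 between the arms of miR-423.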

How the data were processed

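Per the study's methods and the labels, the authors made NEXTFLEX small RNA libraries, sequenced them on a HiSeq2500, trimmed adapters (Cutadapt 1.10), aligned the reads to Sscrofa10.2 (Bowtie 1.1.1) and assigned them to miRBase entries with miRDeep2. The table used here holds raw counts as deposited by the authors, 1 row per mature name and precursor. Columns were matched to samples by the names in the sample titles. The study's sheet of read totals gives ES-like cells and PFFs the other way round. By the column names, the markers listed for ES-like cells (4 of 4) were highest there. Of the fibroblast-associated names, ssc-miR-143-3p and ssc-miR-145-5p were highest in PFFs and the others in PEBs. These lists were chosen with earlier results of these data known, so they are no independent check of the column names.

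Counts were summed over precursor rows and divided by the library total (RPM), where the study compared values normalized with the TCC package. The values have no test, because the names and lists were chosen with earlier results of these data known and ES-like cells, PEBs and PFFs have 1 library each. Nothing in the labels says how the embryos of the BL libraries were divided. Ratios were called past 2-fold over the 327 names with a read. Intervals are 95% exact Poisson, Clopper-Pearson or Wilson intervals. Alternatives were TMM (edgeR 4.0.16), size factors (DESeq2 1.42.0), RPM without the 5 most abundant names of each library, a pseudocount of 10 RPM, a minimum of 10 reads in every library, the largest row, a 4-fold threshold and leaving out BL_1 or BL_2. Only the 2-fold rule for BLs over the cultured libraries was tried on simulated counts. Apart from the planted changes, these gave all libraries the same composition, so they do not cover the differences in makeup between the real libraries. The text names all matched names, the reference and Drosha-independent miRNAs with a read, the 3 names most like each, the neighbours in BLs and the 3 names with the largest arm shifts. Blood cell-associated names summed to 105.5 RPM in BL_1, 63.62 in BL_2 and from 2.216 to 38.6 in cultured libraries. The sum in BL_1 was ssc-miR-486 alone, at 12 reads. The other names, ssc-miR-144 and ssc-miR-451, had 0 reads in BL_1 and were highest in ES-like cells (18.2 and 13.81 RPM). Predicted loci outside miRBase carry no miRBase name and were not used here. Calculations used R 4.3.3, Python 3.11.15, numpy 2.4.6, pandas 2.3.3, scipy 1.17.1 and matplotlib 3.10.9.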

Additional observations from a re-analysis of the deposited data

How the results depend on the processing

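The count of 4 names past 2-fold in BLs over each other type was 4 under every alternative tried, 4-fold and each BL library alone included. These names were picked for their height in BLs, so no conclusion is drawn from the steady count. Every alternative used mature miRNA reads alone, and none set the counts against all small RNA reads. Over all 327 names the count was 61 in RPM, 40 with the pseudocount and 38 at 4-fold. It was from 58 to 65 with the other scalings and the largest row. When a BL library was left out, the arm shift of miR-423 ranged from -2.59 to -2.38 and the shift of the ratio of ssc-miR-378 to ssc-miR-378b-3p from 1.21 to 1.53 (log2). Counts among single cultured libraries moved with the scaling. For ES-like cells over PEBs the count of 1 became 0 with TMM, 2 without the 5 most abundant names and 0 at 4-fold. With TMM, the count of 4 for ES-like cells over PFFs became 2 (3 with size factors and at 4-fold) and for PFFs over ES-like cells 1 (ssc-miR-320). With size factors, the count for PFFs over PEBs became 1 (ssc-miR-320). The count of 3 for PEBs over PFFs became 2 with TMM, size factors, without the 5 most abundant names and at 4-fold. Of the 8 control miRNAs, 1 passed the rule for BLs with TMM and 1 with size factors (0 in RPM). Of 180 recomputed ratios of single names, 160 kept both direction and side of 2-fold. The 20 others concerned pairs of cultured libraries, apart from ssc-miR-423-3p without BL_1 (-0.06 against ES-like cells and 0.92 against PEBs, log2). No ratio past 2-fold in RPM changed direction. No paired analysis was possible because ES-like cells, PEBs and PFFs have 1 library each. Among the 5 miRNAs with reads, ssc-miR-378b-3p had the fewest reads in BL_1 (217). For ssc-miR-484, at 0 reads, the depth of BL_1 left a limit of 26.4 RPM.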
